A study of Mus musculus with 11 samples.

Results

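Interferon gamma (Ifng) and 7 further cytokine genes of natural killer (NK) cells, Tnf, Il10, Csf2, Csf1, Lta, Ltb and Tgfb1, were followed across 4 groups of RNA-seq libraries. They were taken by symbol from a table of 24421 genes, and all 8 were found and tested among the 13711 genes that passed the filter on low counts. The libraries came from spleen NK cells of C57BL/6 mixed bone marrow chimeras, that is, mice whose blood cells derive from a mixture of donor marrows. In these chimeras CD45.1 marked the wild-type (WT) cells and CD45.2 the cells lacking LDHA (KO). LDHA is the lactate dehydrogenase subunit that turns pyruvate into lactate. Cells were sorted as Ly49H+ NK cells (NK1.1+ DX5+, without TCRb or CD3e), and all samples carry the label of in vivo infection with mouse cytomegalovirus (MCMV). The titles give the groups WT_D0 (n = 2), KO_D0 (n = 3), WT_D2 (n = 3) and KO_D2 (n = 3). The label for days after infection reads 2 for all 11 libraries, so D0 and D2 follow the titles, and it is uncertain whether the D0 mice were infected. For libraries titled WT the genotype label lists both genotypes, and these were grouped by title. Each library is described as 1 mouse. The ages of the mice and the driver of the LDHA deletion are not given in the sources used here.

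NK cells are innate lymphocytes that kill infected cells and secrete cytokines. Early in MCMV infection, interleukin-12 and interleukin-18 act on NK cells through STAT4 and other factors to switch on the interferon gamma gene, and Ly49H binds a viral protein on infected cells. Interferon gamma and TNF activate macrophages, GM-CSF (Csf2) and M-CSF (Csf1) are growth factors of myeloid cells, the lymphotoxins (Lta, Ltb) shape lymphoid tissue, and interleukin-10 and TGF-beta1 restrain immune responses. Cytokine messenger RNAs are also controlled after transcription: copies of the pentamer ATTTA in their 3′ ends are bound by proteins such as tristetraprolin (Zfp36) that speed decay. Lactate dehydrogenase has been linked to interferon gamma production in T cells.

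The transcripts differed in how many such pentamers they hold. Stretches of 30 bases from the 3′ ends of Ifng, Tnf and Csf2 are shown because these 3 carry dense runs of it. Each was read from the longest coding GENCODE M21 transcript, 5′ to 3′, with ATTTA in capitals.
Ifng: ctATTTAttaatATTTAaaactATTTAtat
Tnf: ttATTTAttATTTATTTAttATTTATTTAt
Csf2: atATTTATTTATTTATTTATTTAtttttgc
The windows span bases 649 to 678 of the Ifng transcript, 1313 to 1342 of Tnf and 720 to 749 of Csf2. Csf2 held 10 pentamers over its transcript, or 12.5 per kb. Il10 held 7 (5.34 per kb), Ifng 6 (4.97 per kb) and Tnf 8 (4.88 per kb). Only 0.588% of 12584 tested genes with a coding transcript reached 4 per kb, and the median gene had 0.807 per kb. Lta had 3 pentamers (2.17 per kb), Csf1 4 (0.958 per kb), Tgfb1 2 (0.92 per kb) and Ltb none.

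Library depth and cell identity were checked before the cytokines. Libraries held 19452460 to 27992092 counts. On these raw totals the detection floor of 3 counts corresponded to 0.107 to 0.154 CPM (reads of a gene relative to its library size). All other CPM values here are TMM-scaled, so whether a gene lies at the floor was read from its counts. Ldha itself stood at 91.1 to 114.6 CPM in the 6 KO libraries and at 563 to 3101 CPM in the 5 WT libraries. All 12 NK cell markers were present, and they summed to 14392 to 17156 CPM in D0 and 47150 to 58765 CPM in D2 libraries. Gzmb, the most abundant at D2, measured 843 to 1220 CPM at D0 and 28440 to 35723 CPM at D2, and Prf1 and Gzma also rose. Klrb1c (1429 to 1681 CPM at D0, 391 to 808 at D2), Itga2, Eomes and Cd160 fell, and the other markers overlapped between days. Ncr1 was lower in KO on both days (640 to 742 CPM in KO_D0, 1208 to 1408 in WT_D0). At D2 Tbx21 was lower in KO, and Klra8, Klrk1, Prf1 and Nkg7 were higher. Among markers of other cells, the T cell list summed to 14.8 to 31.8 CPM and the B cell list to 31.8 to 57.4 CPM over all libraries. The monocyte, macrophage and granulocyte list summed to 52.5 to 72.3 CPM in WT_D0, 27.0 to 52.8 in KO_D0, 20.1 to 25.8 in WT_D2 and 17.3 to 23.7 in KO_D2. The erythroid and platelet list, led by Hbb-bs, ranged from 81.8 to 709 CPM at D0 and 30.6 to 247 CPM at D2. The dendritic cell list, led by Cd74, summed to 80.8 to 126 CPM over all libraries, and the mast cell and basophil list, led by Kit, to 49.1 to 110 CPM. The list for the related innate lymphoid cells ILC1 and ILC3, led by Gata3, a gene that NK cells also express, summed to 133 to 183 CPM at D0 and 57.9 to 68.5 CPM at D2. In bulk RNA of sorted cells, fewer producing cells and less RNA per cell cannot be told apart.

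Il10 was the only member near the detection floor, and only at D0. In D0 libraries it had 0 to 13 counts, and KO_D0 replicate 3 had 0, which allows at most 0.154 CPM on its raw total. The floor covers counting error only. Csf1 (13 to 37 counts at D0) and Lta (22 to 53 counts in all libraries) were low but above the floor in every library. The remaining 5 genes had at least 64 counts in each library.

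**Figure D1:**
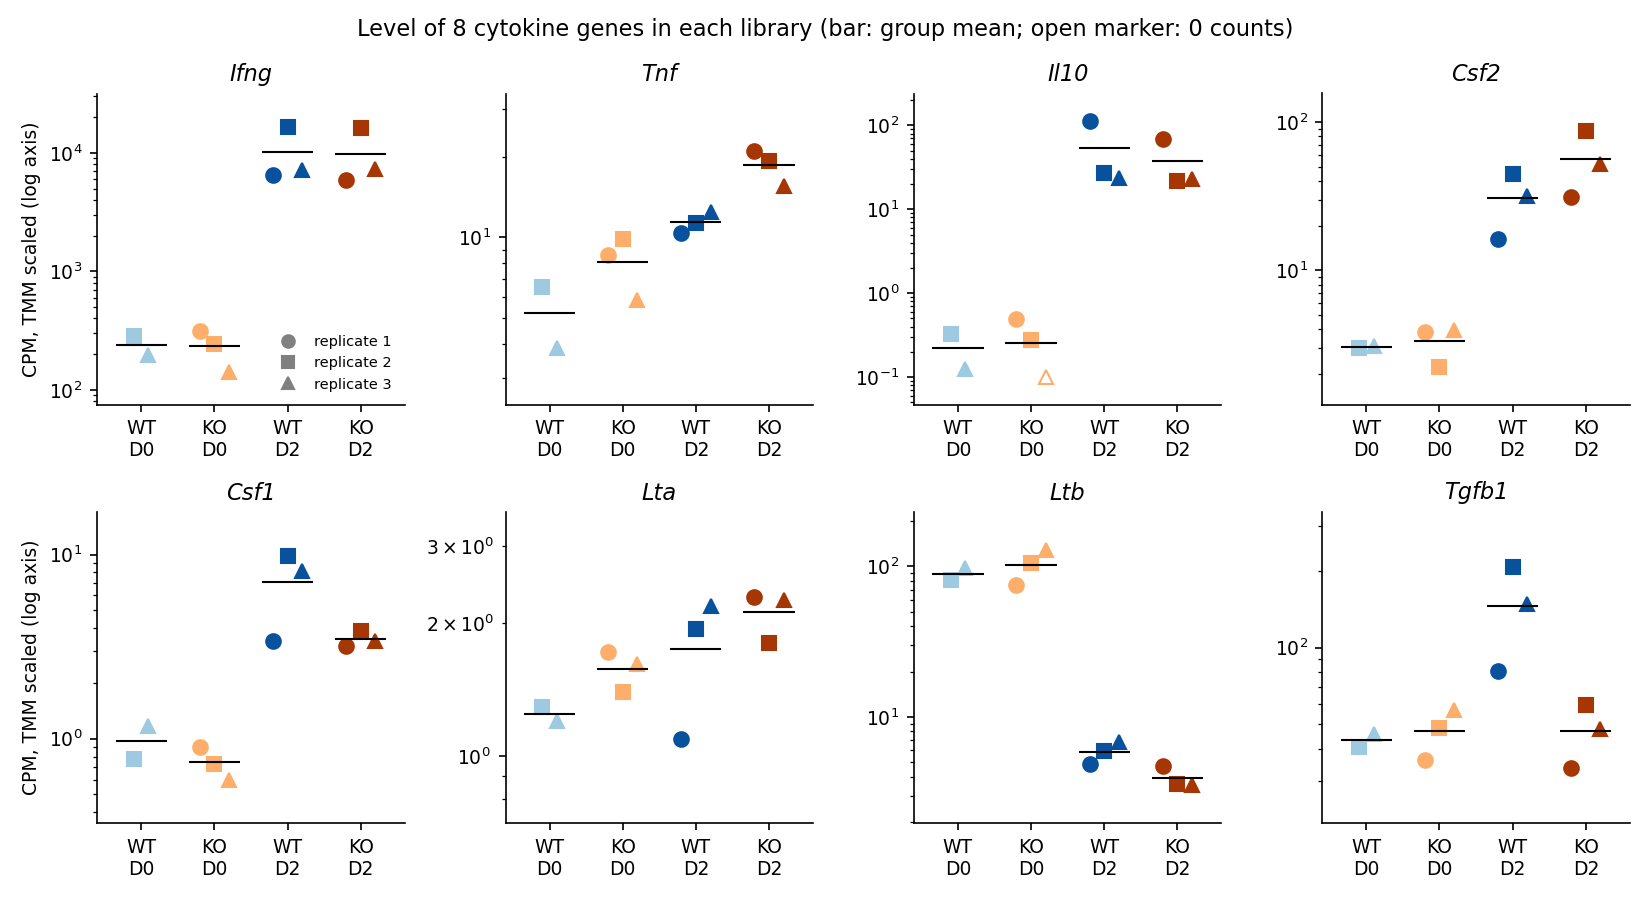
Level of each gene in every library, in TMM-scaled CPM on a log axis, with groups along the x axis, the group mean as a bar and marker shape for the replicate number. Ifng, Tnf, Il10, Csf2 and Csf1 lie higher in every D2 library than in every D0 library and Ltb lower, while Tgfb1 lies higher in WT_D2 only. The open Il10 marker is a library with 0 counts drawn at the bottom of its axis.

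Ifng (Entrez 15978, chr10:118441046-118445894, mm10) encodes interferon gamma. It measured 283 and 197 CPM in WT_D0 and 312, 244 and 143 CPM in KO_D0. At D2 it reached 6482, 16661 and 7141 CPM in WT and 5941, 16218 and 7320 CPM in KO, in the order of replicates 1, 2 and 3. Every D2 library stood above every D0 library, and replicate 2 was the highest of its group in both genotypes. Group means were 240 ± 60.5 CPM in WT_D0 (SD, n = 2), 233 ± 85.3 in KO_D0 (n = 3), 10095 ± 5696 in WT_D2 (n = 3) and 9826 ± 5578 in KO_D2 (n = 3). Ifng rose in both genotypes, with a log2 fold change of 5.40 in WT (SE 0.61, edgeR adjusted p = 8.9e-06) and 5.40 in KO (SE 0.51, edgeR adjusted p = 1.4e-06). Without KO_D2 replicate 2 the KO value was 4.79. It was the 46th largest rise of 13711 genes in each. In both D2 groups Ifng ranked 3rd of all genes by mean CPM, after Gzmb, the granzyme B gene, and Actb. A single D2 library spent 0.530% to 1.46% of its counts on Ifng, against 0.0159% to 0.0369% at D0.

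KO and WT cells did not differ detectably in Ifng at D2. The log2 fold change was -0.04 (SE 0.42, edgeR adjusted p = 0.98), with a 95% interval of the KO to WT ratio from 0.517 to 1.83. Levels spread 2.57-fold over the replicates of WT_D2 and 2.73-fold over those of KO_D2, with the numbers in the same order. Within same-numbered pairs the KO to WT ratios were 0.917, 0.973 and 1.03. With the replicate number as a block the interval narrowed to 0.874 to 1.08 (log2 fold change -0.04, SE 0.07, edgeR adjusted p = 0.72). That interval is for Ifng alone. The fitted ratios of all other members in the same fit lay outside it, including those of Il10 and Lta, which were not called. At D0 the log2 difference was -0.04 (SE 0.47, edgeR adjusted p = 1), and -0.34 with the block (edgeR adjusted p = 0.077).

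Tnf (Entrez 21926, chr17:35199367-35202007) encodes the inflammatory cytokine TNF. It measured 6.53 and 3.89 CPM in WT_D0, 8.62, 9.88 and 5.87 in KO_D0, 10.4, 11.4 and 12.4 in WT_D2 and 21.03, 19.2 and 15.6 in KO_D2. The KO_D2 libraries were the highest of the 11, and the D2 groups did not overlap. Tnf rose from D0 to D2 by a log2 fold change of 1.13 in WT (SE 0.27, edgeR adjusted p = 0.0037) and 1.19 in KO (SE 0.24, edgeR adjusted p = 7.2e-04). Without WT_D0 replicate 3 the WT change was 0.75 (edgeR adjusted p = 0.071). KO stood above WT at D2 by a log2 difference of 0.71 (SE 0.23), which missed the threshold (edgeR adjusted p = 0.059) and passed it with the replicate block (0.70, SE 0.16, edgeR adjusted p = 0.0078). The difference also passed with RLE scaling (edgeR adjusted p = 0.029) and in the DESeq2 Wald test (adjusted p = 0.0056). It missed the threshold with no filter (edgeR adjusted p = 0.063) and with a filter of 5 CPM (edgeR adjusted p = 0.057). With an offset for GC content, described below, and no block it was 0.58 (edgeR adjusted p = 0.13). Without any single D2 library it was not called, with edgeR adjusted p from 0.07 to 0.23. The paired ratios were 2.03, 1.69 and 1.26 at D2. At D0 they were 1.51 and 1.51 for the 2 shared numbers, and the log2 difference of 0.64 (SE 0.27) had an edgeR adjusted p of 1.

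Csf2 (Entrez 12981, chr11:54247270-54249899) encodes GM-CSF. It lay between 2.23 and 3.93 CPM in the 5 D0 libraries, and rose to 16.2, 44.6 and 31.5 CPM in WT_D2 and 31.1, 86.5 and 51.8 CPM in KO_D2. Each KO library exceeded its same-numbered WT library while the groups overlapped, with replicate 1 lowest and replicate 2 highest in both. The log2 fold change from D0 to D2 was 3.34 in WT (SE 0.50, edgeR adjusted p = 9.8e-05) and 4.09 in KO (SE 0.44, edgeR adjusted p = 4.1e-06). At D2 the KO against WT difference of 0.88 (SE 0.38) did not pass without the block (edgeR adjusted p = 0.16). It passed with the block at 0.87 (SE 0.13, edgeR adjusted p = 6.8e-04), where the KO to WT ratio had a 95% interval of 1.49 to 2.24. The paired ratios were 1.92, 1.94 and 1.65, and the DESeq2 Wald test, which has no block, gave an adjusted p of 0.038. The difference missed the threshold with RLE scaling (edgeR adjusted p = 0.091), no filter (0.32), a filter of 5 CPM (0.14) and only the compared groups (0.21). With the GC offset, described below, and no block it was 0.76 (edgeR adjusted p = 0.27). Leaving out each library in turn gave 0.42 to 1.24, never called (edgeR adjusted p from 0.07 to 0.60).

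Csf1 (Entrez 12977, chr3:107741048-107760469) encodes M-CSF, the growth factor that maintains macrophages. It measured 0.776 and 1.17 CPM in WT_D0, 0.899, 0.733 and 0.601 in KO_D0, 3.39, 9.86 and 8.16 in WT_D2 and 3.17, 3.84 and 3.39 in KO_D2. All D2 libraries were above all D0 libraries, and WT_D2 replicate 1 lay among the KO_D2 libraries while replicates 2 and 3 of WT_D2 lay above all of them. Csf1 rose by a log2 fold change of 2.87 in WT (SE 0.43, edgeR adjusted p = 1.0e-04) and 2.2 in KO (SE 0.39, edgeR adjusted p = 2.7e-04). At D2 the KO against WT difference was -1.04 (SE 0.34, edgeR adjusted p = 0.057), and -0.95 with the block (SE 0.28, edgeR adjusted p = 0.031). Without single libraries it ranged from -1.40 (edgeR adjusted p = 0.0017, without WT_D2 replicate 1) to -0.74 (edgeR adjusted p = 0.27, without WT_D2 replicate 2). An offset for GC content, described below, brought it to -0.49 without the block (edgeR adjusted p = 0.40) and -0.42 with it (edgeR adjusted p = 0.31).

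Il10 (Entrez 16153, chr1:131019845-131024970) encodes interleukin-10, which damps inflammation. Its D0 levels were 0.323 and 0.127 CPM in WT and 0.487, 0.279 and 0 CPM in KO. At D2 it measured 113, 27.3 and 23.6 CPM in WT and 68.3, 21.7 and 23.2 CPM in KO. Replicate 1 was the highest D2 library in both genotypes for Il10 and the lowest for Ifng. The gene passed the filter only through its D2 counts, so its change from D0 to D2 is given as a description without a test. The fitted log2 change was 7.89 in WT and 7.10 in KO. These sizes rest on very few D0 counts, 14 in all of WT_D0 and 21 in all of KO_D0. They ranged from 6.75 (without WT_D2 replicate 1) to 8.62 (without WT_D0 replicate 2) in WT and from 6.30 (without KO_D2 replicate 1) to 7.81 (without KO_D0 replicate 1) in KO. With the replicate block across days the WT value was 6.90. At D2 the genotypes overlapped, with a log2 difference of -0.53 (SE 0.59, edgeR adjusted p = 0.67) and -0.37 with the block (SE 0.16, edgeR adjusted p = 0.14). The block together with the GC offset gave -0.50 (edgeR adjusted p = 0.034). Il10 starts 7.04 Mb from Ptprc, the CD45 gene whose alleles mark the genotypes, and the part of linked alleles in its values was not tested.

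Tgfb1 (Entrez 21803, chr7:25687002-25705077), which encodes TGF-beta1, was the member whose D2 level differed most between genotypes. It measured 40.9 and 46.0 CPM in WT_D0 and 36.1, 48.5 and 56.9 CPM in KO_D0. At D2 it measured 80.9, 207 and 148 CPM in WT and 33.7, 59.6 and 48.2 CPM in KO. Every WT_D2 library stood above every other library, and KO_D2 overlapped the D0 groups. Tgfb1 rose in WT by a log2 fold change of 1.74 (SE 0.35, edgeR adjusted p = 9.7e-04). In KO the change was 0.00 (SE 0.30, 95% interval -0.64 to 0.64, edgeR adjusted p = 1). KO cells were lower at D2 by a log2 difference of -1.62 (SE 0.30, edgeR adjusted p = 0.0023), or 3.08-fold, and by -1.57 with the block (SE 0.11, edgeR adjusted p = 8.5e-06). The paired ratios were 0.416, 0.287 and 0.326. The call held without each library in turn, with log2 differences from -1.94 to -1.28 and a highest edgeR adjusted p of 0.017. The GC offset reduced the difference to -1.08 (edgeR adjusted p = 0.0066) and made the KO change from D0 to D2 a rise of 0.61 (edgeR adjusted p = 0.032). Tgfb1 starts 21.2 Mb from Ldha on the same chromosome, and the part of linked alleles in its values was not tested.

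Ltb (Entrez 16994, chr17:35194507-35196305) and Lta (Entrez 16992, chr17:35203165-35205578) encode the 2 lymphotoxin subunits and flank Tnf, yet the 3 genes moved differently. Ltb measured 81.1 and 97.4 CPM in WT_D0, 74.8, 105 and 128 in KO_D0, 4.83, 5.93 and 6.84 in WT_D2 and 4.71, 3.55 and 3.53 in KO_D2. It was the only member lower in every D2 library than in every D0 library. The fall was -3.92 on the log2 scale in WT (SE 0.23, edgeR adjusted p = 5.6e-08) and -4.71 in KO (SE 0.23, edgeR adjusted p = 1.1e-08), the 145th and 81st largest falls of 13711 genes. With the GC offset the falls were -3.91 in WT and -3.92 in KO. At D2 the groups did not overlap, with a KO against WT difference of -0.58 (SE 0.22, edgeR adjusted p = 0.11), and -0.58 with the block (SE 0.17, edgeR adjusted p = 0.028). The GC offset turned the sign to 0.22 (edgeR adjusted p = 0.53). Lta lay between 1.10 and 2.30 CPM in all 11 libraries and passed the test in no comparison. Its log2 change from D0 to D2 was 0.49 in WT (95% interval -0.23 to 1.21) and 0.43 in KO (95% interval -0.21 to 1.06).

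Besides Il10, whose entry into the test depended on its D2 counts, 6 of 7 members passed from D0 to D2 in WT, 5 higher and 1 lower. Of all tested genes 53.5% passed in that comparison. In KO 5 of 7 passed, 4 higher and 1 lower, where 61.4% of all genes passed. Of all genes 27.5% were called higher and 26.0% lower in WT, and 27.0% higher and 34.5% lower in KO, so passing the test is common in both comparisons.

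**Figure D2:**
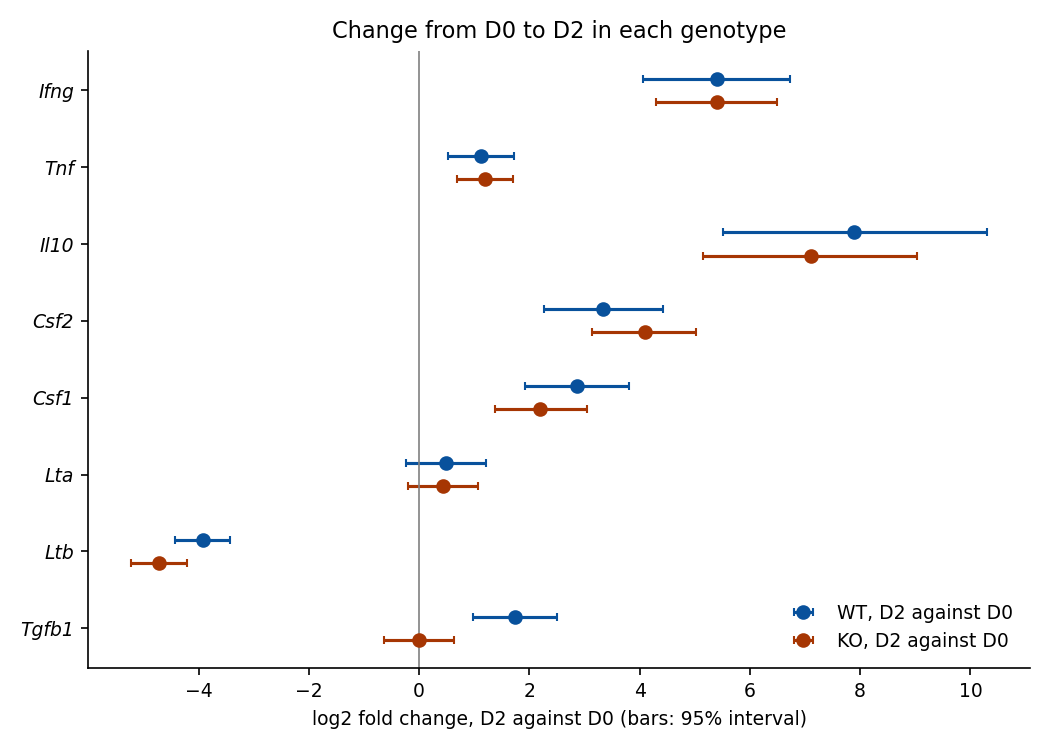
Log2 fold change from D0 to D2 in WT and KO cells for each gene, with 95% intervals from the edgeR fit and the line at 0 for equal levels. The WT and KO points lie close together for Ifng (5.40 in each) and apart for Tgfb1 (1.74 in WT and 0.00 in KO).

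Between genotypes at D2, 1 of 8 members, Tgfb1, passed without the block, where 16.1% of all genes passed (1.61% higher and 14.5% lower). With the replicate block 5 of 8 passed, with Csf2 and Tnf higher and Csf1, Ltb and Tgfb1 lower in KO, where 25.1% of all genes passed. With a block by number alone, across both days, Tnf and Tgfb1 passed, where 19.9% of all genes passed, and the edgeR adjusted p was 0.068 for Csf2, 0.051 for Csf1 and 0.074 for Ltb. Tnf, Ltb and Tgfb1 were the members whose D2 groups did not overlap, and 33.8% of all genes were separated in this way. At D0 no member passed in edgeR (background 0.153%) or in DESeq2. Tnf alone had an unadjusted edgeR p under 0.05 without the block (0.034), and with the block Ifng (0.0026), Tnf (0.015) and Ltb (0.031) did. The block at D0 rests on the 2 shared numbers only.

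**Figure D3:**
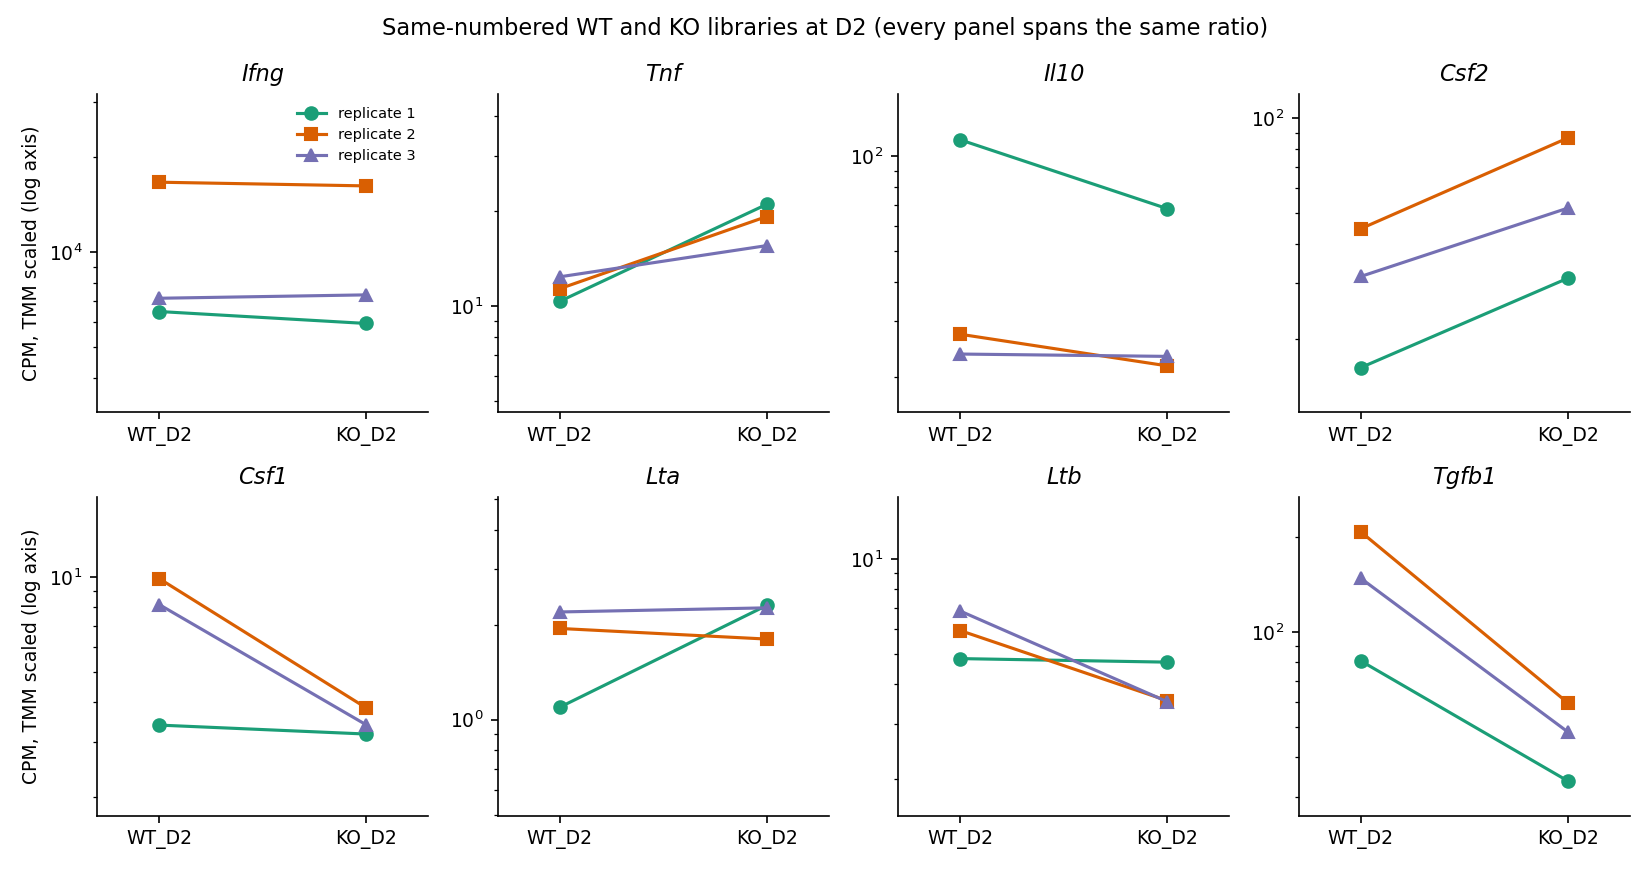
Same-numbered WT_D2 and KO_D2 libraries joined by lines for each gene, in TMM-scaled CPM on log axes that all span the same ratio. The Ifng lines are nearly flat while their heights differ by replicate number, the Csf2 and Tnf lines all go up, and the Tgfb1 lines all go down.

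The change from D0 to D2 itself differed between genotypes for 1 member, where 5.84% of all genes passed and 5.72% were lower. For Tgfb1 the KO minus WT difference of the log2 change was -1.74 (SE 0.45, edgeR adjusted p = 0.041). The adjusted p was 0.057 with RLE scaling, 0.11 with no filter and 0.10 with the GC offset. Leaving out single libraries ended the call in 9 of 11 cases, with a highest adjusted p of 0.18, and kept it without KO_D0 replicate 1 and without WT_D2 replicate 1. With the block the difference was -1.84 (SE 0.17, edgeR adjusted p = 2.2e-04), and with the block and the GC offset -1.27 (edgeR adjusted p = 5.7e-04). At D0 these blocked fits rest on the 2 shared numbers only, for which pairing is uncertain, as described below. The block also called Ltb (-0.97, edgeR adjusted p = 0.014) and Csf2 (0.89, edgeR adjusted p = 0.030), where 19.1% of all genes passed. With the block and the GC offset together 16.7% of all genes passed, and neither of these did, at -0.13 (edgeR adjusted p = 0.75) and 0.51 (edgeR adjusted p = 0.22). For Ifng the difference of changes was 0.00 (95% interval -1.37 to 1.37), and 0.29 with the block (95% interval 0.05 to 0.54, edgeR adjusted p = 0.090).

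The lower values in KO_D2 went with transcripts rich in G and C. The measure used was the highest GC content of any 100-base window of the transcript. Among 1415 genes at 60% to 65%, 1.34% were called lower in KO_D2 than in WT_D2, with a median log2 difference of 0.13. Among 2849 genes at 80% or more, 33.3% were called lower, with a median of -0.42. The members followed this order in part: Csf2 (59%), Ifng (61%), Il10 (62%) and Tnf (64%) lie at the low end, Lta at 71%, and Csf1 (77%), Ltb (79%) and Tgfb1 (84%) at the high end. The 3 members with the highest values were those lower in KO with the block. With the block and an offset that removes each library's trend over GC content, Csf2 was 0.77 higher (edgeR adjusted p = 0.0014), Tnf 0.58 higher (edgeR adjusted p = 0.021) and Tgfb1 lower at -1.07 (edgeR adjusted p = 2.2e-05), where 23.6% of all genes passed. Il10, at the low end of GC content, was also called lower in that fit (-0.50, edgeR adjusted p = 0.034). Ltb and Csf1 were no longer called, and Ifng stood at -0.16 (95% interval -0.32 to -0.01, edgeR adjusted p = 0.12).

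**Figure D4:**
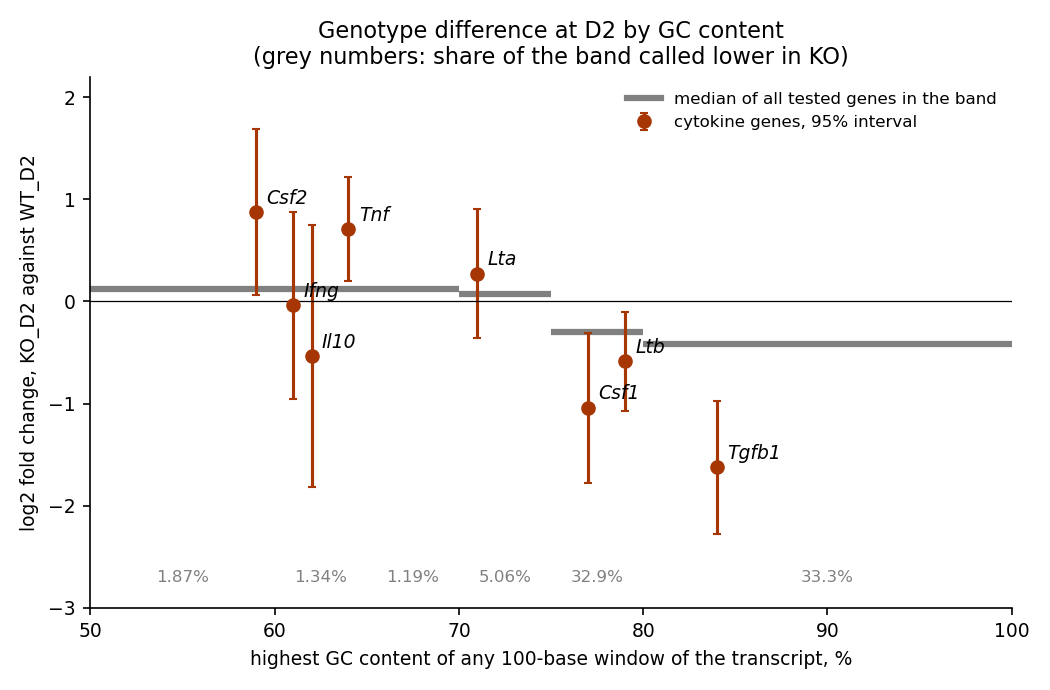
KO_D2 against WT_D2 log2 fold change of each gene with its 95% interval, without the block, against the highest GC content of any 100-base window of its transcript. Grey lines give the median of all tested genes in each band, which falls from 0.13 at 60% to 65% to -0.42 at 80% or more. Grey numbers give the percentage of the band called lower in KO. Tgfb1, Csf1, Ltb, Il10 and Ifng lie below the medians of their bands, and Csf2, Tnf and Lta above.

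**Figure D5:**
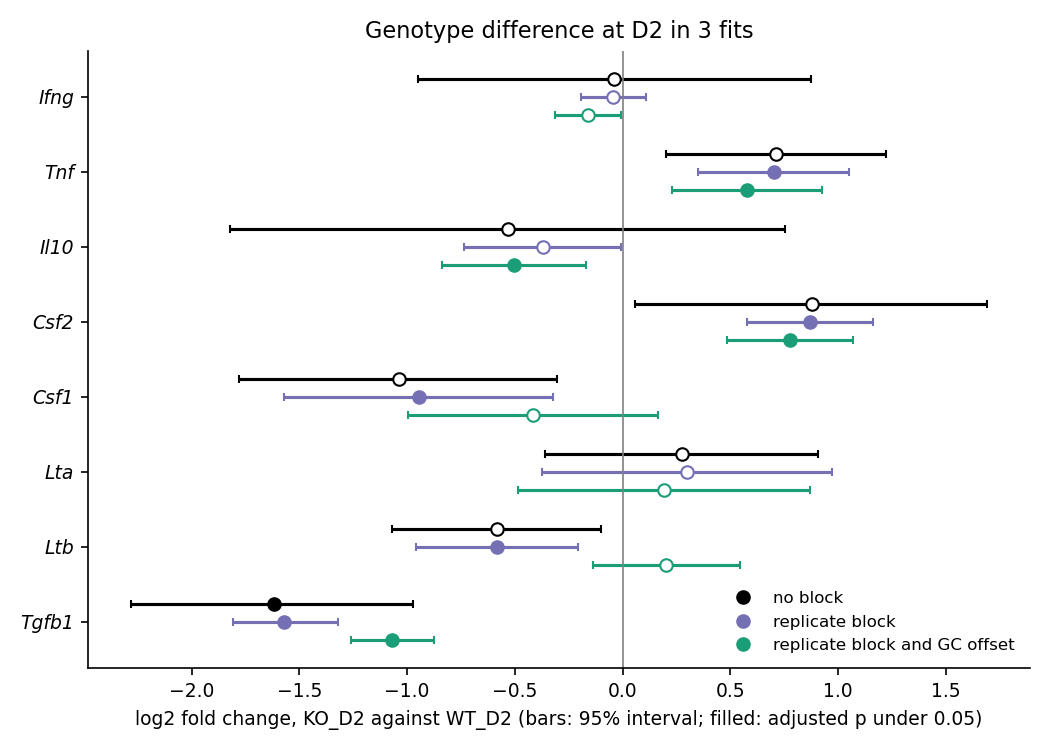
KO_D2 against WT_D2 log2 fold change of each gene with 95% intervals in 3 fits, without the replicate block, with it, and with it and the GC offset. Filled points passed an adjusted p of 0.05; Tgfb1 passed in all 3 fits, Csf2 and Tnf in both blocked fits, and Ltb changes side with the offset.

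Levels of different genes were compared per kb of transcript. In WT_D0 Ifng led at 199 ± 50.1 CPM per kb (SD, n = 2), followed by Ltb at 76.9 ± 9.98 and Tgfb1 at 19.97 ± 1.68. Csf2 (3.80 ± 0.06) and Tnf (3.18 ± 1.14) came next and overlapped, then Lta (0.902 ± 0.05), Csf1 (0.233 ± 0.07) and Il10 (0.172 ± 0.11), of which the last pair overlapped. In WT_D2 Ifng stood at 8356 ± 4715 CPM per kb (n = 3), with every library above every value of the other members. Tgfb1 (66.8 ± 29.1), Il10 (41.7 ± 38.5) and Csf2 (38.5 ± 17.8) followed with overlapping ranges. Tnf (6.94 ± 0.62) and Ltb (5.05 ± 0.87) did not overlap, and Csf1 (1.71 ± 0.80) and Lta (1.26 ± 0.42) did. In KO_D2 the order below Ifng (8134 ± 4617) was Csf2 (70.6 ± 35.0), Il10 (28.8 ± 20.2), Tgfb1 (21.7 ± 5.97), Tnf (11.4 ± 1.70), Ltb (3.39 ± 0.58), Lta (1.53 ± 0.20) and Csf1 (0.830 ± 0.08). Ranges of Csf2 and Il10 overlapped there, as did those of Il10 and Tgfb1, while Tnf and each gene below it were separated from their neighbours.

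Promoters of Ifng, Csf1 and Ltb are shown, since Csf1 rose and Ltb fell while their promoters share a 10-base match. They are the 250 bases before the RefSeq start in GRCm38.p6 (mm10), 5′ to 3′ on the strand of the gene, and 7 of the 8 members had an entry. Capitals mark matches on either strand to a STAT motif (TTCNNNGAA), a TATA box (TATAAA) or the kappaB motif.
Ifng, chr10:118440796-118441045, plus strand: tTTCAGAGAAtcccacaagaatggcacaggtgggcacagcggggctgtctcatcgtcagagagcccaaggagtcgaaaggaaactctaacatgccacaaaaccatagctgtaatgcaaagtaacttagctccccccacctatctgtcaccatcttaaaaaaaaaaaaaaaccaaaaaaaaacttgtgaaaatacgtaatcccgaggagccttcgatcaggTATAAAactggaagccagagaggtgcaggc
Csf1, chr3:107760470-107760719, minus strand: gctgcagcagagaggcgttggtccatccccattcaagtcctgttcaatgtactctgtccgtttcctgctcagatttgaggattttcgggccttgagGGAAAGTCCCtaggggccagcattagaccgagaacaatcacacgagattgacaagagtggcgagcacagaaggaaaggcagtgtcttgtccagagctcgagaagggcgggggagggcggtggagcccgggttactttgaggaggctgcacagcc
Ltb, chr17:35194257-35194506, plus strand: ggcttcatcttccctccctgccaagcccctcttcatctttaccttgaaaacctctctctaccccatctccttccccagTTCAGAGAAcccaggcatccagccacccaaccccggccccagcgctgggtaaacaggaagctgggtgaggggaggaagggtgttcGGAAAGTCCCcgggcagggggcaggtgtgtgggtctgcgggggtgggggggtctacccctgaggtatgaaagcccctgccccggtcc
Ifng held a STAT match 249 to 241 bases before the start and a TATA box at 30 to 25 bases before it. Csf1 held the kappaB match GGAAAGTCCC at 154 to 145 bases before the start, and Ltb the same 10 letters at 87 to 78. Ltb also held a STAT match at 172 to 164 bases before the start. Tnf held a TATA box at 29 to 24 bases before the start. Lta held the letters TATAAA at 167 to 162 bases before the start used, and 2 STAT matches. Most of the Lta window (chr17:35205352-35205601) lies inside the gene span given above. The windows of Csf2 and Tgfb1 held no match to any motif searched. Over 27025 promoters of this length, 7.18% held the STAT letters, 13.0% the TATA box and 3.75% a kappaB match. No member matched the AP-1 (TGANTCA, 6.87% of promoters), T-box (AGGTGTGA, 1.14%) or CRE core (TGACGT, 6.56%) letters in this window. No matches overlapped each other. A match is a description of letters only.

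Genes that act upstream of these cytokines were counted from D0 to D2, where 53.5% of all genes passed in WT and 61.4% in KO. Of 21 receptor and kinase genes that induce NK cytokines, 8 rose and 9 fell in WT, and 8 rose and 9 fell in KO. Their median log2 changes were -0.23 and -0.20, beside -0.07 and -0.20 over all genes. The interleukin-2 receptor alpha chain gene Il2ra rose by 7.54 in WT and 7.57 in KO, and the interleukin-12 receptor genes Il12rb1 (2.60 and 2.53) and Il12rb2 (1.47 and 1.59) rose as well. The interleukin-18 receptor genes Il18r1 (-1.70) and Il18rap (-1.44) fell in WT. Their means in KO also went down, from 230 to 89.7 CPM for Il18r1 and from 991 to 525 CPM for Il18rap. Among 32 transcription factor genes, 15 rose and 10 fell in WT (median 0.46) and 11 rose and 12 fell in KO (median 0.06). Irf4 rose by 4.79 in WT and 4.12 in KO, and Irf8 by 2.35 and 1.51. The highest edgeR adjusted p among the log2 changes given here was 5.1e-06, for Il18r1 in WT.

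Of 16 genes for proteins that bind or degrade cytokine messenger RNA, 6 rose and 3 fell in WT and 5 rose and 4 fell in KO. Over all genes 27.5% were called higher and 26.0% lower in WT, and 27.0% higher and 34.5% lower in KO. Tristetraprolin (Zfp36) fell by 1.99 on the log2 scale in WT and 1.90 in KO, from 807 ± 360 to 203 ± 33.5 CPM in WT and from 919 ± 333 to 246 ± 34.6 CPM in KO. Its relative Zfp36l2 fell by 2.2 in WT and 3.04 in KO. Of 15 receptor genes of the member cytokines, 2 were called higher and 7 lower in WT (median -0.53), where 26.0% of all genes were lower, and 2 higher and 9 lower in KO (median -1.09), where 34.5% were lower. Il10ra, the interleukin-10 receptor alpha gene, rose by 0.72 in WT (edgeR adjusted p = 0.0058) and 1.09 in KO, while Il10rb fell by 1.35 and 1.61. Without WT_D0 replicate 2 the WT change of Il10ra was 0.48 (edgeR adjusted p = 0.12). The interferon gamma receptor gene Ifngr1 fell by 1.09 in WT, and its mean in KO went from 811 ± 136 to 588 ± 51.2 CPM. Tgfbr2, a TGF-beta receptor gene, fell by 0.83 in WT and 1.73 in KO. With the GC offset the KO changes were -0.85 for Il10rb and -0.88 for Tgfbr2. The highest edgeR adjusted p among these log2 changes besides Il10ra was 0.001, for Tgfbr2 in WT.

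The counts of the next 3 lists stand beside 27.5% of all genes called higher and 26.0% lower in WT. In KO these shares of all genes were 27.0% and 34.5%. Of 19 genes for processing and release of the members, 16 were tested, of which 4 rose and 5 fell in WT and 5 rose and 5 fell in KO. Furin, the protease that cleaves the TGF-beta1 precursor, rose by 4.92 in WT and 4.26 in KO, reaching 356 ± 80.6 CPM in WT_D2 and 232 ± 42.1 CPM in KO_D2. Rhbdf2, needed to bring the TNF-shedding protease to the cell surface, rose by 1.75 and 1.95. Among 19 signal mediators and feedback genes, 7 rose and 4 fell in WT and 8 rose and 6 fell in KO. Cish, a feedback inhibitor induced by STAT5, rose by 3.35 and 3.55, and the TGF-beta pathway genes Smad3 (-1.61 and -1.77) and Ski (-1.64 and -2.28) fell. With the GC offset the KO change of Smad3 was -1.02. Of 40 further secreted factors 21 were tested, of which 7 rose and 4 fell in WT and 11 rose and 6 fell in KO. The interleukin-6 family cytokines Lif (4.65 and 4.51) and Osm (1.39 and 1.37) and Mif (2.60 and 2.42) rose in both, and Il16 (-1.93 and -1.39) and Flt3l (-2.37 and -2.06) fell in both. The highest edgeR adjusted p among the changes named for these 3 lists was 4.4e-05, for Rhbdf2 in WT.

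Between genotypes at D2, 5 of the 140 tested genes of the 7 lists were higher in KO (3.57%, beside 1.61% of all genes) and 27 lower (19.3%, beside 14.5%). With the block 28 were higher (20%, beside 6.56%) and 38 lower (27.1%, beside 18.6%). No gene of the 32 transcription factors was higher and 13 were lower (40.6%), with a median of -0.41 beside 0.01 over all genes. The block gave 6 higher and 16 lower. The GC offset gave 4 higher and 8 lower, against 5.92% and 8.03% of all genes. Junb, an AP-1 subunit, was lower by -1.45 (SE 0.19, edgeR adjusted p = 2.9e-04), Hif1a, a regulator of glycolytic genes, by -1.78 (SE 0.28, edgeR adjusted p = 8.9e-04) and Irf8 by -0.77 (SE 0.12, edgeR adjusted p = 9.1e-04). With the GC offset Junb was -0.78, Hif1a -0.95 and Irf8 -0.24 (edgeR adjusted p = 0.24 for Irf8).

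Of the inducing receptors and kinases 2 were higher in KO at D2, Il18rap (0.40, SE 0.10, edgeR adjusted p = 0.013) and Il2rg, the shared gamma chain gene (0.32, SE 0.09, edgeR adjusted p = 0.030). Neither was called with the GC offset, and leaving out single D2 libraries ended the call in 3 cases for Il18rap (KO_D2 replicates 1 and 3 and WT_D2 replicate 1) and with each of the 6 for Il2rg. In the same list 4 were lower, among them the kinase genes Jak1 (-1.01) and Jak3 (-1.18) and the interferon receptor gene Ifnar2 (-1.26). With the GC offset Jak1 was -0.21 (edgeR adjusted p = 0.22) and Ifnar2 -0.59. Of the cytokine receptors 3 of 15 (20%) were lower, beside 14.5% of all genes, with Tgfbr2 at -0.96 (SE 0.15, edgeR adjusted p = 8.7e-04), and none was called lower with the GC offset, where Tgfbr2 was -0.16 (edgeR adjusted p = 0.39). Of the processing genes 2 of 16 (12.5%) were lower, with Stx11, a fusion protein of the secretory pathway, at -1.35 and at -0.68 with the GC offset. Of the feedback genes 3 of 19 (15.8%) were lower, with Socs1 at -2.59 (-1.71 with the GC offset) and Socs3 at -1.57. Of the messenger RNA binding factors 2 of 16 (12.5%) were lower, and none with the GC offset. Of the other secreted factors 3 of 21 were higher (14.3%, beside 1.61% of all genes) and none lower. Among these 3 only Il15 had a mean of at least 5 CPM over the libraries. It was higher by 0.96 (SE 0.22, edgeR adjusted p = 0.0093), from 8.59 ± 0.58 CPM in WT_D2 to 16.7 ± 3.66 CPM in KO_D2. Without KO_D2 replicate 1 the Il15 difference was 0.76 (edgeR adjusted p = 0.064). At D0 none of the 140 tested genes of the 7 lists passed in edgeR without the block or in DESeq2, with 8 and 7 at an unadjusted p under 0.05.

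The genes whose levels ran most closely with a member over the 11 libraries were found by Pearson's r of log2(CPM + 1) among 9355 genes, a description over libraries that share group and day. For Ifng they were Nabp1 (r = 0.996), Gtpbp4 (0.995) and Crem (0.994), the last a cAMP-responsive transcription factor that went from 17.6 to 278 CPM in WT and from 16.6 to 331 CPM in KO. For Ltb they were Fam53b (0.999), Cyp4f13 (0.997) and Pdk2 (0.997), a kinase that inhibits pyruvate dehydrogenase. For Tgfb1 they were Smyd2, Rad23b (both 0.976) and Tnfrsf21 (0.975), and Smyd2 stood at 3.18 CPM in WT_D0, 3.29 in KO_D0, 13.6 in WT_D2 and 4.20 in KO_D2. For Tnf the closest was Cdkn1a, a cell cycle inhibitor (0.950), at 14.7, 30.4, 134 and 280 CPM in WT_D0, KO_D0, WT_D2 and KO_D2. For Il10 it was Art2b (0.995) and for Csf2 Aste1 (0.990).

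The values that could be shared with other cells or genes were as follows. Csf1r, a defining macrophage marker, measured 2.14 to 9.02 CPM in D0 libraries and 0.563 to 2.26 CPM in D2 libraries, while Fcgr1 of the same list measured 0 to 0.0646 CPM at D0 and 0.190 to 1.13 CPM at D2. Of the T cell list, Cd3e stayed under 1 CPM in every library and Cd3d measured 7.20 to 17.7 CPM. Of the B cell list, Pax5 measured 0 to 0.129 CPM and Cd22 23.6 to 51.2 CPM. The part of these cells in the member levels was not tested. Annotated genes overlap Csf2, Csf1, Lta and Ltb. Those of Csf2 and Csf1 are not among the counted genes, and those of Lta and Ltb are microRNA genes with at most 3 counts in a library.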

How the data were processed

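The authors deposited raw whole-number counts for each Entrez gene ID. Per the submitters' processing notes, tools upstream were bcl2fastq 2.20.0.422, Trimmomatic 0.36, Salmon 0.13.1 (also listed as 13.1) and DESeq2 1.22.2, with build mm10; their roles are not given in the sources used here, so the deposited counts may be rounded estimates. A RefSeq table (GRCm38.p6) named 24387 of 24421 IDs, and the other 34 held at most 0.0244% of a library.

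All 11 libraries (4 groups by title) entered 1 edgeR 4.0.16 fit in R 4.3.3: quasi-likelihood test, TMM, filterByExpr, 7 residual degrees of freedom, 5 contrasts, Benjamini-Hochberg over 13711 genes, called at an adjusted p under 0.05. SE came from the F statistic. CPM are TMM-scaled, with SD. The fit without the block or GC offset was checked on simulated counts in which all genes had the same spread setting. The fits with a block or GC offset were not checked in this way. Replicates are described as individual mice.

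Same-numbered KO and WT libraries deviated together at D2 (r = 0.217, 0.198 and 0.114), and the numbers were taken to pair them there. The other D2 combinations had r from -0.193 to 0.00511. Deviations from a group mean sum to 0, so not all combinations can be positive. These r come from the tested data, so pairing at D2 remains an assumption. At D0 only 2 numbers are shared (r = 0.0275 and 0.410). KO_D0 replicate 1 has no WT partner. Whether a number marks a shared host is not given. The blocked fit has a term for each day and number, so at D0 it compares the genotypes over the 2 shared numbers only. KO_D0 replicate 1 adds nothing to that comparison. Its r with WT_D0 replicate 2, of another number, was 0.376, so these values do not settle pairing at D0.

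Members, gene lists and tests were chosen with earlier results of these data known. Named genes are the 8 members, Ldha and, per list and contrast, up to 3 called genes a direction with the smallest p and a mean of at least 5 CPM, of which fewer are named. Alternatives were RLE scaling, DESeq2 1.42.0, no filter, a 5 CPM filter, the compared groups only, 2 blocks, leaving out each library and, chosen after seeing the data, a GC offset over 20 bins.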

Additional observations from a re-analysis of the deposited data

Results flagged for a closer look

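The change of Tgfb1 from D0 to D2 differed between genotypes by the test of that difference. The KO minus WT difference of the log2 change was -1.74 (edgeR adjusted p = 0.041), from a rise of 1.74 in WT and a change of 0.00 in KO. It was also called in the fit with the replicate block (-1.84), with the block and GC offset (-1.27) and by the DESeq2 Wald test, and not with RLE scaling, with no filter, with the GC offset alone or in 9 of the 11 fits that left out 1 library. At D0 the blocked fits rest on the 2 shared numbers only. What underlies the difference was not tested.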

How the results depend on the processing

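Tgfb1 was called lower in KO_D2 than in WT_D2 under all alternatives run. Leaving Il10 aside, the D2 against D0 calls (6 members in WT and 5 in KO) kept their counts within 1.5 times. The count of members called between genotypes at D2, 1 as reported, was 2 with RLE scaling, with no filter, with only the compared groups and with the replicate block across days, where the added member was Tnf, except with no filter, where it was Csf1. It was 4 with DESeq2 and with the replicate block and GC offset, 5 with the replicate block, and 1 to 2 without single libraries. The second call was Tnf without KO_D0 replicate 3, WT_D0 replicate 2 or WT_D0 replicate 3, Ltb without KO_D0 replicate 1 and Csf1 without WT_D2 replicate 1. For the difference of changes between genotypes the count, 1 as reported, was 0 with RLE scaling, no filter and the GC offset, where 2, 2 and 1 members had an unadjusted edgeR p under 0.05, and it was 1 with DESeq2. With the replicate block it was 3, and without single libraries 0 to 2, where Ltb was added without KO_D0 replicate 1. RLE scaling moved the median of all genes from 0.01 to 0.10 for KO_D2 against WT_D2, from -0.20 to -0.09 for KO_D2 against KO_D0 and from -0.04 to 0.06 for the difference of changes.

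Among the members, signs turned only for values that were not called in the main fit, which has no block. Ltb, KO_D2 against WT_D2, was called with the block alone (-0.585, edgeR adjusted p = 0.028). Ldha, KO_D2 against KO_D0, was 0.14 and not called, and -0.30 with the GC offset (edgeR adjusted p = 0.029). For KO_D2 against WT_D2, Ifng was 0.0614 with RLE scaling and 0.0592 with DESeq2, and Ltb 0.216 with the GC offset and 0.203 with the block added to it. For KO_D0 against WT_D0, Il10 was -0.635 with the replicate block, -0.656 with the block across days and -0.554 with block and GC offset, Ifng 0.0571 with the block across days and Csf2 -0.0216 with the block. For KO_D2 against KO_D0, Tgfb1 was -0.047 with no filter, -0.134 with the filter of 5 CPM and -0.0213 with the block across days. For the difference of changes, Ifng was -0.00453 with the 5 CPM filter, -0.0923 with the block across days and -0.175 with the GC offset. Tnf was -0.0642 with the GC offset and -0.0486 with the block added. Il10 was 0.264 with the block, 0.292 with the block across days and 0.0494 with block and GC offset, and Csf1 was 0.137 with the last. Lta was 0.0449 with RLE scaling, 0.0342 with the block and 0.0431 with DESeq2. The causes were not tested.

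Without single libraries, values that turned sign ranged from -0.613 to 0.528 (Ifng) and -1.29 to 0.549 (Il10) for KO_D2 against WT_D2. For KO_D0 against WT_D0 they ranged from -0.325 to 0.214 (Ifng), -0.513 to 1.04 (Il10), -0.0161 to 0.339 (Csf2), -0.00388 to 0.368 (Ltb) and -0.0536 to 0.262 (Tgfb1). Tgfb1 ranged from -0.247 to 0.134 for KO_D2 against KO_D0. For the difference of changes the ranges were -0.552 to 0.57 (Ifng), -0.34 to 0.392 (Tnf), -1.57 to 0.305 (Il10) and -0.304 to 0.145 (Lta).

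The 5 CPM filter left out Csf1 and Lta, the fit of D0 libraries alone left out Il10, and the block by day and number gives no D2 against D0 value. Il10 at D0, Csf1 and Lta are limited by depth.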
